A study of Mus musculus with 27 samples.

Results

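The genes described here are 9 components of the signalling pathway of leukaemia inhibitory factor (LIF): the receptor subunits *Lifr* and *Il6st*, the kinases *Jak1* and *Jak2*, the transcription factor *Stat3*, the feedback inhibitors *Socs2* and *Socs3*, and the kinases *Pim1* and *Pim3*. They were chosen by symbol and are 9 of the 27080 genes listed in 3 count tables. Every gene of the 9 was listed in each table, none appeared on more than 1 row, and all 9 passed the filter on low counts in every comparison. RNA-seq was available for 12 libraries of J1, a mouse embryonic stem cell (mESC) line grown on gelatin without feeder cells. In the knockdown (KD) experiment, lentivirus delivered a control shRNA (shNT, 3 libraries) or an shRNA against *Gas41*, a subunit of chromatin remodelling complexes (shGas41-1, 3 libraries, and shGas41-2, 2 libraries). These cells were selected with a drug for infected cells, KD cells were harvested on day 8 after infection, and the medium held LIF at 1000 U/ml. In the embryoid body (EB) experiment, cells with the control vector were kept in the same medium with LIF (EB day 0, 2 libraries) or were grown as suspended aggregates in medium without LIF for 6 days (EB day 6, 2 libraries). Loss of LIF, growth as aggregates and differentiation therefore changed together and cannot be told apart, an EB is a mixture of cells, and in such bulk samples fewer cells of a type and less RNA per cell cannot be told apart either. The study states that its experiments had at least 2 biological repeats, but nothing in the labels says which libraries of a group came from separate cultures. The p-values therefore measure the spread between these libraries, which may be technical.

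LIF binds a receptor made of Lifr and the shared signal transducer gp130, the product of *Il6st*. Receptor-bound Jak kinases then phosphorylate Stat3, which enters the nucleus and activates its target genes. In mESCs grown in serum, this pathway is known for holding cells in the undifferentiated state, and Stat3 also induces the Socs proteins, which shut the receptor down again. Pim kinases are serine/threonine kinases without a regulatory domain, so that their activity follows their amount, and *Pim1* and *Pim3* are known Stat3 targets in mESCs.

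Libraries held between 59224537 and 81524773 counts, and levels are given as CPM, the counts of a gene scaled to a common library total of 1000000. *Yeats4*, the symbol of *Gas41*, lay between 52.1 and 63.2 CPM in shNT, between 3.50 and 4.79 CPM with shGas41-1 and between 7.68 and 8.68 CPM with shGas41-2. Markers of undifferentiated cells did not all change alike at EB day 6: 6 of 7 fell and *Tdgf1* rose 1.59-fold. *Pou5f1* lay between 768 and 1461 CPM in all 12 libraries, and *Zfp42* between 1189 and 2096 CPM in the 10 libraries with LIF against 32.4 and 46.4 CPM in the EB day 6 libraries. The summed level of 4 markers of primed and streak cells (*Fgf5*, *T*, *Mixl1* and *Eomes*) was between 4.22 and 13.1 CPM with LIF and between 1425 and 1835 CPM at EB day 6. Among 4 fibroblast markers, *Postn* was at 0 in all shNT and KD libraries, and the summed level of the list was at most 13.9 CPM in any library. Replicate 3 of shGas41-1 stood apart from its replicates 1 and 2, from which its counts differed by 144 and 235.7 times what sampling noise gives (chi-square over genes divided by the degrees of freedom), against 29.2 to 81.28 times for all other pairs within a group. Results of shGas41-1 are therefore also given without it.

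The promoters of *Socs3*, *Stat3* and *Pim3*, the genes that fell furthest in EBs, are shown first, because all 3 are known targets of the Stat3 protein itself. RefSeq entries (GRCm38.p6) were found for 8 of the 9 genes, with 10 start sites in all, and *Socs2* had no entry. Stat dimers are known to bind TTCNNNGAA, which reads the same on both strands, and TTCCNGGAA is a stricter form of it, so that every match to the second is also a match to the first. In windows from 250 bases before to 50 bases after the start site, *Socs3* was the only gene of the 8 that held TTCNNNGAA, and none held TTCCNGGAA. Over all 32851 promoters of the same length, 8.3% held the first motif and 1.15% the second. Counted by gene, 9.55% of 27025 genes held the first and 1.35% the second. A match describes letters in the window, and its absence says nothing about the factor. The 250 bases before the start site are given 5′ to 3′ on the strand of the gene, with the match in capitals. The match in *Socs3*, TTCTTAGAA, begins at base -154 from the start site.
*Socs3*, chr11:117969367-117969616, minus strand: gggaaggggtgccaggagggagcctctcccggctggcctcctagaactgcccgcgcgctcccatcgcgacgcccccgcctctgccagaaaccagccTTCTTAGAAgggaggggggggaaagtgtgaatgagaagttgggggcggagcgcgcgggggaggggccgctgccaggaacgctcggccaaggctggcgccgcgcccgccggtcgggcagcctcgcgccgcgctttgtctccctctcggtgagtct
*Stat3*, chr11:100939541-100939790, minus strand: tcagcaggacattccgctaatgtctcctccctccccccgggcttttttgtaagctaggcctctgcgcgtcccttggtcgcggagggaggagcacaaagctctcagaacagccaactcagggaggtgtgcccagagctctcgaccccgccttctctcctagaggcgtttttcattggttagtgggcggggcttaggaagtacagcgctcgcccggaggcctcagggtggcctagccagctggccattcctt
*Pim3*, chr15:88861944-88862193, plus strand: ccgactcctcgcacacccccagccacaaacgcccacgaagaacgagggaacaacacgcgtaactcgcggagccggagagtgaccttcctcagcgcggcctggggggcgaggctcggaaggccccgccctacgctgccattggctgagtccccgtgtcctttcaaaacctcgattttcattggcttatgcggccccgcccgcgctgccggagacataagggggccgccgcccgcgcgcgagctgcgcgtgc

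The EB comparison asked how the pathway differs between undifferentiated cells with LIF and day 6 EBs without it. Of the 9 genes, 5 fell (*Lifr*, *Stat3*, *Socs3*, *Pim1* and *Pim3*), 3 rose (*Jak1*, *Jak2* and *Socs2*) and *Il6st* did not pass the test. A gene is said here to have risen or fallen at an FDR of 0.05 or less in edgeR's quasi-likelihood test, adjusted over all genes tested. In this comparison 28.4% of the 18287 genes tested fell and 30.5% rose, so that a called gene is common. The median log2 fold change was -1.43 over the 9 genes and -0.00 over all genes tested. The largest fall was that of *Socs3*, to 5.16% of its EB day 0 level, and the largest rise that of *Socs2*, to 421% of it. Each of the 8 calls remained when any of the 4 libraries was left out. Of 7 markers of undifferentiated cells 6 fell (summed level between 5351 and 5832 CPM in EB day 0 and between 2119 and 2272 CPM in EB day 6), and all 4 primed and streak markers and all 3 endoderm markers rose, and the part of this change of cells in the pathway values was not tested.

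**Figure D1:**
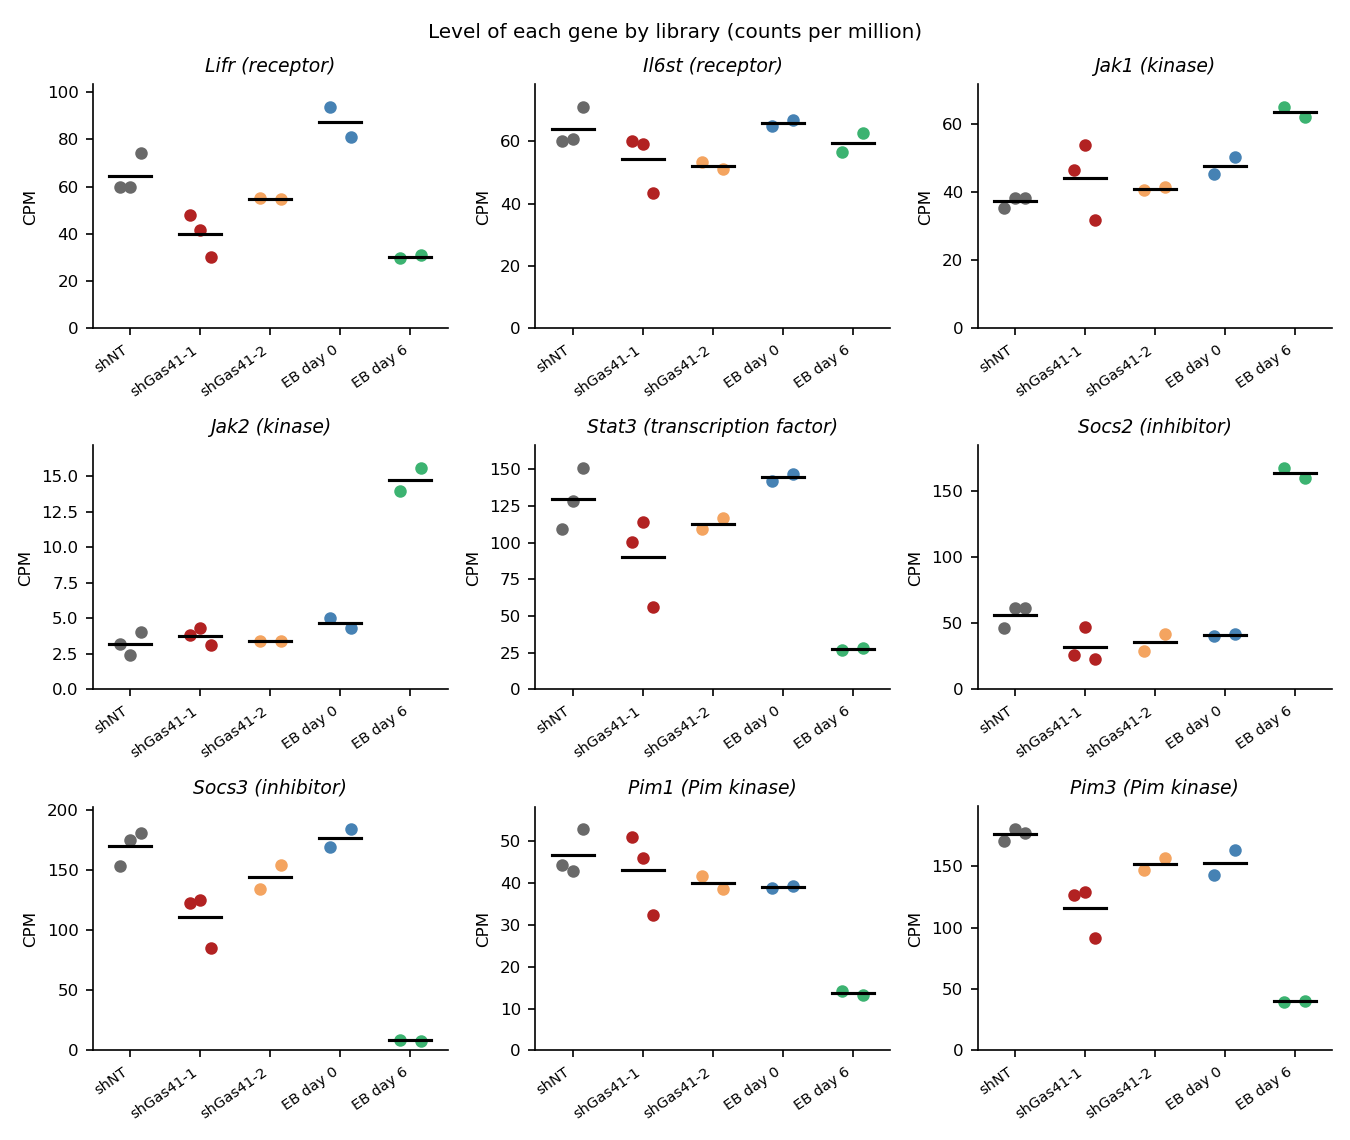
CPM of the 9 genes (vertical axes, linear from 0) in each of 12 libraries, by group (horizontal axes). Points are libraries, in the order of their replicate numbers, and lines are group means. In *Stat3*, *Socs3*, *Pim1* and *Pim3* both EB day 6 libraries lie below the other 10, and in *Jak1*, *Jak2* and *Socs2* above them.

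*Lifr*, the LIF-specific receptor subunit (ENSMUSG00000054263, mm9 chromosome 15, 7079559 to 7147489, plus strand), was at 93.9 and 80.9 CPM in EB day 0 and at 29.8 and 31.0 CPM in EB day 6. In the KD experiment, shNT 1 to 3 had 59.8, 59.8 and 74.2 CPM, shGas41-1 1 to 3 had 48.0, 41.7 and 30.4 CPM, and shGas41-2 1 and 2 had 55.2 and 54.7 CPM. Both EB day 6 libraries were below both EB day 0 libraries, and the level fell 2.71-fold (log2 fold change -1.44, SE 0.10, FDR = 6.67e-05). In the order of the group means, EB day 0 came first, then shNT, shGas41-2, shGas41-1 and EB day 6, and only shGas41-1 and EB day 6 overlapped among neighbours: shGas41-1 replicate 3 lay between the EB day 6 libraries.

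*Il6st*, which encodes gp130, the subunit shared by the receptors of the IL-6 family (ENSMUSG00000021756, chromosome 13, 113265216 to 113297068, plus strand), was at 64.8 and 66.9 CPM in EB day 0 and at 56.6 and 62.5 CPM in EB day 6. The log2 fold change was -0.06 (95% confidence interval -0.27 to 0.15, FDR = 0.585). Its group means ran from 65.8 CPM in EB day 0 through 64.0 in shNT, 59.5 in EB day 6 and 54.2 with shGas41-1 to 52.1 CPM with shGas41-2, and each pair of neighbours in that order overlapped. The receptor subunits thus differed in their values: the change of *Lifr* lay below the interval of *Il6st*.

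*Jak1* (ENSMUSG00000028530, chromosome 4, 100824972 to 100937887, minus strand) encodes the kinase that gp130 receptors chiefly use. It was at 45.4 and 50.4 CPM in EB day 0 and at 65.2 and 62.3 CPM in EB day 6, a rise of 1.41-fold (log2 fold change 0.50, SE 0.09, FDR = 0.00319). The groups did not overlap, and *Jak1* was the only one of the 8 called genes with less than a 2-fold change. *Jak2*, a related kinase that also serves cytokine and hormone receptors (ENSMUSG00000024789, chromosome 19, 29326318 to 29387570, plus strand), was at 5.02 and 4.30 CPM in EB day 0 and at 14.0 and 15.6 CPM in EB day 6. It rose 3.37-fold (log2 fold change 1.75, SE 0.16, FDR = 1.78e-04), and among the other 10 libraries it did not exceed the 5.02 CPM of EB day 0 replicate 2.

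*Stat3*, the transcription factor of the pathway (ENSMUSG00000004040, chromosome 11, 100746412 to 100800854, minus strand), was at 142 and 147 CPM in EB day 0 and at 27.02 and 27.95 CPM in EB day 6. This was a fall of 4.95-fold (log2 fold change -2.31, SE 0.08, FDR = 7.49e-06). In the KD experiment, shNT 1 to 3 had 109, 128 and 151 CPM of it, shGas41-1 1 to 3 had 100, 114 and 56.4 CPM, and shGas41-2 1 and 2 had 109 and 116 CPM. The group means of EB day 0, shNT, shGas41-2 and shGas41-1 followed in that order, each overlapping with the next, and EB day 6 lay below all of them. Of its exon bases, 0.756% overlap exons of *Stat5a* on the other strand.

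The inhibitors moved in opposite directions. *Socs3*, the inhibitor that binds gp130 and the Jak kinases (ENSMUSG00000053113, chromosome 11, 117827393 to 117831361, minus strand), was at 169 and 184 CPM in EB day 0 and at 9.06 and 8.14 CPM in EB day 6. It fell 19.4-fold (log2 fold change -4.28, SE 0.10, FDR = 2.42e-06), and its absolute change ranked 902 of the 18287 genes tested. Its promoter is the one above with a match to TTCNNNGAA, a motif held by 9.55% of all genes with a promoter. A link between the match and the fall was not tested. *Socs2*, best known as an inhibitor of growth hormone signalling (ENSMUSG00000020027, chromosome 10, 94847996 to 94879814, minus strand), was at 40.8 and 41.8 CPM in EB day 0 and at 168 and 160 CPM in EB day 6. It rose 4.21-fold (log2 fold change 2.07, SE 0.08, FDR = 8.49e-06), and both EB day 6 libraries lay above the highest of the other 10, shNT 3 at 61.7 CPM. Of the 50-base stretches of its transcripts, 6.15% also occur in a coding transcript of another gene, so that a small part of its counts is uncertain. Of the other 8 genes, only *Lifr* has any such stretch (0.204%).

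*Pim1* (ENSMUSG00000024014, chromosome 17, 29627757 to 29632390, plus strand) was at 38.7 and 39.1 CPM in EB day 0 and at 14.1 and 13.1 CPM in EB day 6, a fall of 2.70-fold (log2 fold change -1.43, SE 0.09, FDR = 5.75e-05). Exons of a non-coding gene on the other strand, *Gm16912*, overlap 23.7% of its exon bases, and without a stated strand setting their reads cannot be told apart. *Pim3* (ENSMUSG00000035828, chromosome 15, 88692616 to 88696150, plus strand) was at 143 and 163 CPM in EB day 0 and at 39.6 and 40.5 CPM in EB day 6, a fall of 3.60-fold (log2 fold change -1.85, SE 0.10, FDR = 2.42e-05). Both EB day 6 libraries were below the other 10 for either gene. The change of *Pim1* was close in size to that of *Lifr*, and the change of *Pim3* was larger than both but smaller than those of *Stat3* and *Socs3*.

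**Figure D2:**
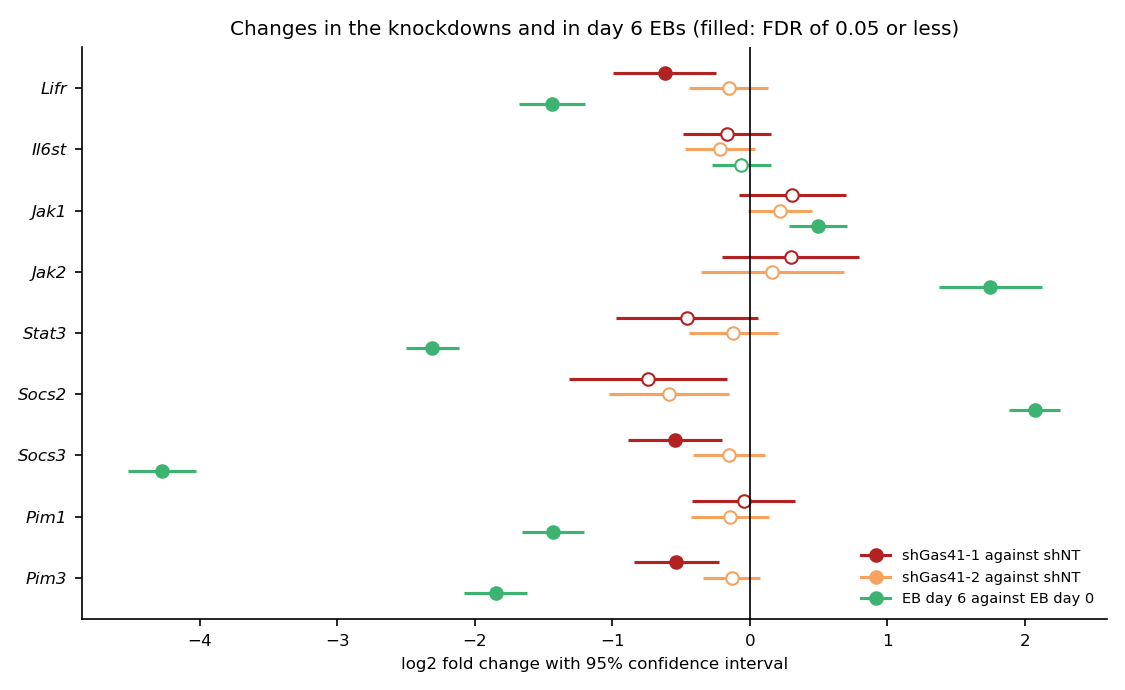
Log2 fold change of the 9 genes with its 95% confidence interval in the KD and EB comparisons (horizontal axis; genes on the vertical axis), filled where the FDR was 0.05 or less. The EB changes run from -4.28 (*Socs3*) to 2.07 (*Socs2*), and the KD changes all lie between -0.74 and 0.31.

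Levels of different genes can be compared only per length, and CPM per kb of exon was used for this. The length is that of all annotated exons of a gene joined, not that of the transcript expressed. The order of genes and the family shares below depend on this choice. In the shNT libraries, *Pim3* (72.8 ± 2.16 CPM per kb, SD, n = 3) and *Socs3* (58.6 ± 5.07) were highest, followed by *Pim1* (23.7 ± 2.74), *Stat3* (13.6 ± 2.20) and *Il6st* (12.3 ± 1.17). *Lifr* (6.25 ± 0.80), *Socs2* (5.95 ± 0.90) and *Jak1* (5.17 ± 0.24) followed, and *Jak2* was lowest at 0.641 ± 0.159 CPM per kb. *Il6st* was thus above *Lifr*, *Socs3* above *Socs2*, and *Jak1* above *Jak2* in undifferentiated control cells. *Stat3* and *Il6st*, and *Lifr*, *Socs2* and *Jak1* among neighbours, did not differ beyond their spread.

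At EB day 6 that order was different. *Socs2* (17.2 ± 0.58 CPM per kb, n = 2) and *Pim3* (16.5 ± 0.24) were highest, ahead of *Il6st* (11.4 ± 0.80), *Jak1* (8.83 ± 0.28) and *Pim1* (6.89 ± 0.35). *Socs3* (2.98 ± 0.22), *Lifr* (2.94 ± 0.09), *Jak2* (2.94 ± 0.23) and *Stat3* (2.88 ± 0.07) lay together at the bottom and did not differ beyond their spread. *Socs3* had been at 61.1 and *Stat3* at 15.2 CPM per kb in EB day 0, against 0.926 CPM per kb for *Jak2*, so that *Socs3* and *Jak2*, far apart with LIF, had overlapping levels per kb in EBs.

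**Figure D3:**
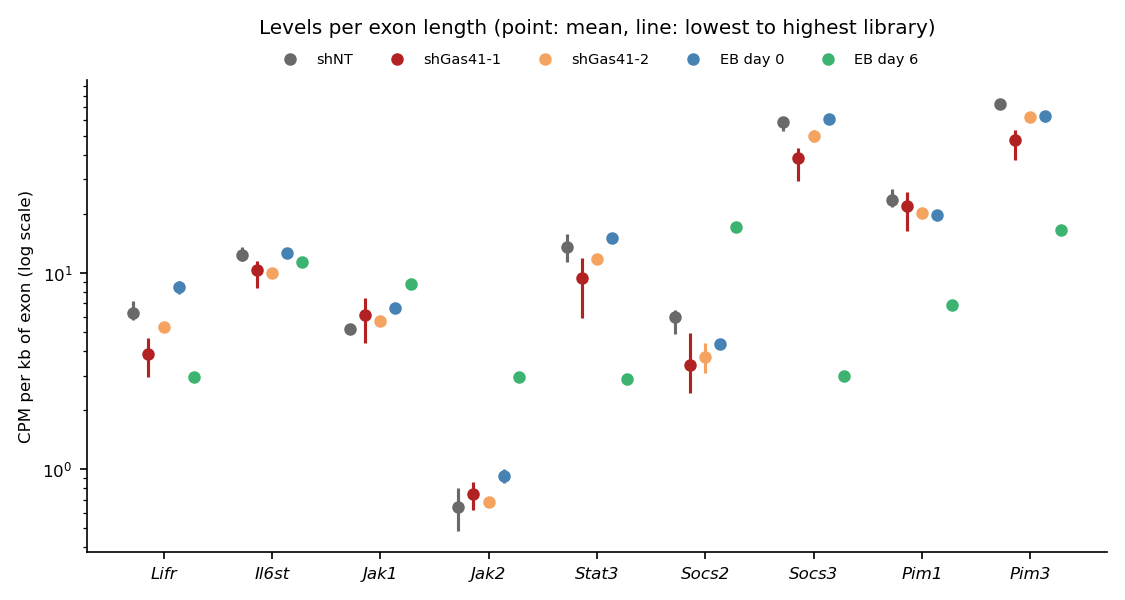
CPM per kb of exon (vertical axis, log scale) of the 9 genes in the 5 groups. Points are means and lines run from the lowest to the highest library of a group. At EB day 6, *Socs3*, *Lifr*, *Jak2* and *Stat3* lie between 2.88 and 2.98 CPM per kb.

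Set beside their relatives, the genes also changed in their share of their family, given here as a share of the CPM per kb summed over the family (these sums were chosen after the values were seen, and are a description). *Stat3* made up 41.7% ± 0.07 (SD, n = 2) of the 7 Stat genes in EB day 0 and 18.0% ± 1.89 in EB day 6, where *Stat6* had 30.3%, *Stat2* 19.4% and *Stat5b* 17.3%. In EB day 0, *Stat6* had 25.2%, *Stat2* 11.1% and *Stat5b* 3.86%. The sum over the Stat genes was 36.4 ± 0.75 CPM per kb in EB day 0 and 16.1 ± 1.31 in EB day 6. *Socs3* went from 69.9% ± 1.26 of 8 genes (7 Socs genes and *Cish*) to 6.26% ± 0.37, and *Socs2* from 4.97% ± 0.14 to 36.2% ± 0.62. The sum over these 8 genes was 87.3 ± 3.82 CPM per kb in EB day 0 and 47.5 ± 0.78 in EB day 6. *Socs3* held between 65.4% and 72.5% in each of the 10 libraries with LIF.

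*Jak1* had 33.7% ± 6.91 of the 4 Jak genes in EB day 0 and 59.4% ± 0.20 in EB day 6, and *Jak2* 4.66% ± 0.11 and 19.8% ± 2.28. Their relatives *Jak3* and *Tyk2* fell (below), while the sum over the family was 19.9 ± 2.65 CPM per kb in EB day 0 and 14.9 ± 0.53 in EB day 6. For the Pim genes, *Pim3* had 72.0% ± 2.32 and *Pim1* 22.5% ± 1.25 in EB day 0, and *Pim3* 6.21% ± 1.53 and *Pim1* 2.57% ± 0.47 in EB day 6. The remaining 91.2% ± 2.01 was *Pim2*, the third Pim kinase, whose rise took the summed level from 87.6 ± 5.43 to 274 ± 63.9 CPM per kb.

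**Figure D4:**
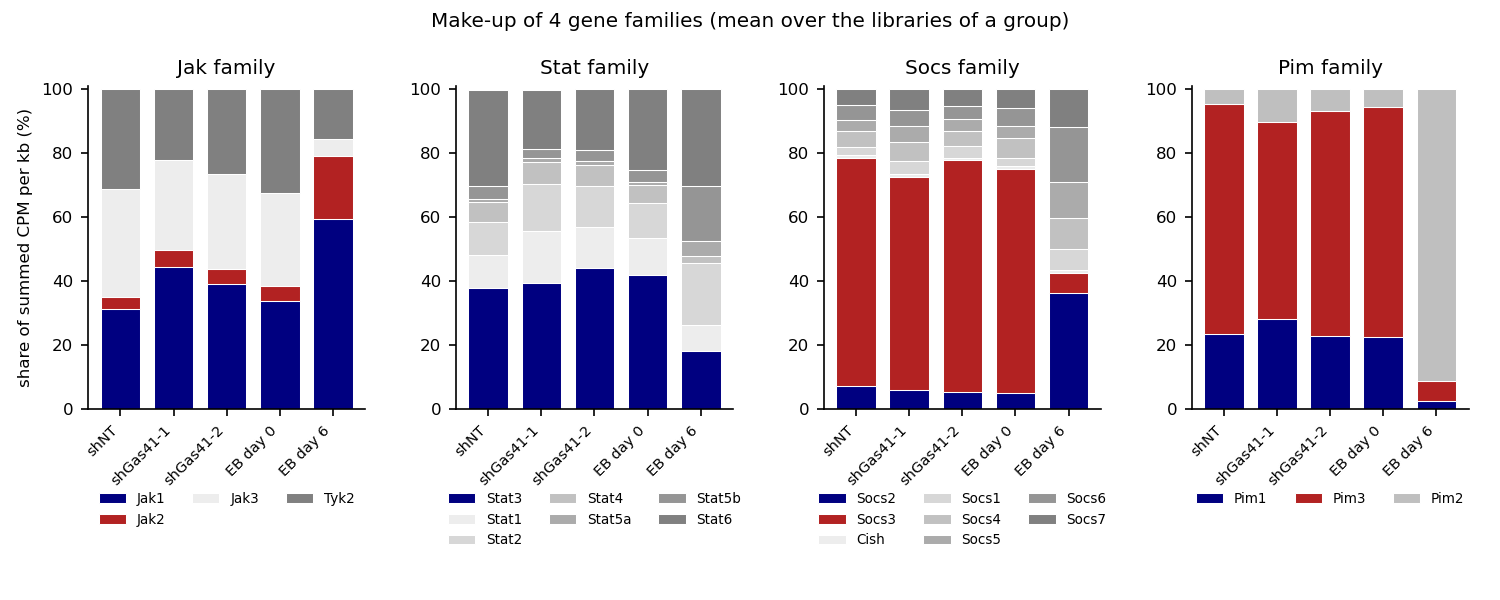
Make-up of the Jak, Stat, Socs and Pim families as shares of the summed CPM per kb (vertical axis, %; mean over the libraries of each group). Blue and red mark genes of the 9, and grey their relatives. At EB day 6, *Socs3* holds 6.26% and *Pim2* 91.2% of their families.

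The KD comparisons asked whether loss of *Gas41* moves the pathway while LIF is present. With shGas41-1, 3 of the 9 genes fell (*Lifr*, *Socs3* and *Pim3*) and 0 rose, against 7.73% that fell and 10.8% that rose among 18274 genes tested. *Lifr* fell to 65.1% of its shNT level (log2 fold change -0.62, SE 0.17, FDR = 0.0336), *Socs3* to 68.8% (-0.54, SE 0.15, FDR = 0.0386) and *Pim3* to 69.1% (-0.53, SE 0.14, FDR = 0.0283). None of the 3 changed by 2-fold, the size the study required. The median log2 fold change was -0.46 over the 9 genes and 0.02 over all genes tested. Markers of cell state moved with the KD as well. Of the 7 markers of undifferentiated cells, *Esrrb* and *Utf1* fell with shGas41-1 (to 48.8% and 57.6% of shNT) and 0 fell with shGas41-2. Among markers of other cells, *Cdh5* of endothelium rose with shGas41-1 (9.44-fold, at most 1.57 CPM) and with shGas41-2 (6.66-fold, at most 1.04 CPM). *Gata6* of endoderm (3.38-fold, at most 0.92 CPM) and *Fgf5* of primed cells (4.21-fold, at most 0.69 CPM) rose with shGas41-1, where *Eomes* and the fibroblast marker *Thy1* fell. Thus 1 of 3 blood and endothelium markers rose with each shRNA. With shGas41-1, 1 of 3 endoderm markers rose, and of 4 primed and streak markers 1 rose and 1 fell. *Kdr*, *Tal1*, *T*, *Mixl1*, *Sox17* and *Foxa2* did not pass with either shRNA. These markers were named after their values were seen, and their part in the pathway values was not tested.

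Behind these folds, shNT 1 to 3 had 153, 175 and 181 CPM of *Socs3* and shGas41-1 1 to 3 had 123, 125 and 85.2 CPM. For *Pim3*, shNT had 170, 181 and 177 CPM and shGas41-1 127, 129 and 91.6 CPM. All 3 shGas41-1 libraries were below all 3 shNT libraries for *Lifr*, *Socs3* and *Pim3*. Replicate 3 of shGas41-1 had the lowest level of its group for all 9 genes, which holds for 50.2% of all genes tested.

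Without that replicate *Lifr*, *Socs3* and *Pim3* still passed, at log2 fold changes of -0.50, -0.42 and -0.43, and *Jak1* rose as well. The 3 calls depended on other libraries: none of the 9 genes passed without shGas41-1 replicate 1, without shNT replicate 2 or without shNT replicate 3. Without shGas41-1 replicate 2 *Lifr* was lost (FDR = 0.0584) and *Socs2* gained, and without shNT replicate 1 *Pim3* was lost (FDR = 0.0581). The log2 fold changes stayed below 0 throughout, between -0.74 and -0.50 for *Lifr*, between -0.61 and -0.42 for *Socs3* and between -0.60 and -0.43 for *Pim3*.

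The other 6 genes did not pass with shGas41-1. *Socs2* had the largest value, with 46.8, 61.6 and 61.7 CPM for shNT 1 to 3 against 26.2, 47.3 and 23.3 CPM for shGas41-1 1 to 3 (log2 fold change -0.74, 95% confidence interval -1.31 to -0.17, FDR = 0.0731). The groups overlapped in 1 library, shGas41-1 replicate 2. *Stat3* had a log2 fold change of -0.46 (-0.97 to 0.06), *Il6st* of -0.17 (-0.48 to 0.15) and *Pim1* of -0.04 (-0.42 to 0.33). *Jak1* had 0.31 (-0.08 to 0.70) and *Jak2* 0.30 (-0.20 to 0.80). For *Jak1*, shNT 1 to 3 had 35.3, 38.4 and 38.4 CPM and shGas41-1 1 to 3 had 46.7, 53.9 and 31.8 CPM, so that replicate 3 alone was below shNT and the others above it. For *Pim1* the values were 44.2, 42.8 and 52.8 CPM and 51.0, 45.9 and 32.3 CPM, again with replicate 3 alone below all shNT libraries.

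With shGas41-2, none of the 9 genes passed, against 3.97% of 18405 genes tested that fell and 5.94% that rose. These are 730 falls and 1094 rises, which became 1290 and 961 when libraries were scaled by size alone. *Socs2* was the only gene with an unadjusted p under 0.05, at 29.5 and 41.8 CPM in shGas41-2 1 and 2, both below the 3 shNT libraries (log2 fold change -0.59, 95% confidence interval -1.03 to -0.15, FDR = 0.0887), and the only gene that passed in DESeq2 (FDR = 0.0249). *Socs2* was also the only gene of the 9 that passed without shNT replicate 1 (FDR = 0.00659). *Socs3* was at 134 and 154 CPM and *Pim3* at 147 and 157 CPM, with log2 fold changes of -0.15 (-0.41 to 0.11) and -0.13 (-0.34 to 0.07). For *Pim3* both libraries were below all 3 shNT libraries, and for *Socs3* 1 of them was above shNT replicate 1. *Lifr* had -0.15 (-0.44 to 0.13), *Stat3* -0.12 (-0.44 to 0.21), *Il6st* -0.22 (-0.47 to 0.04), *Pim1* -0.14 (-0.42 to 0.14), *Jak1* 0.22 (-0.01 to 0.45) and *Jak2* 0.16 (-0.35 to 0.68).

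The shRNAs were compared with each other in a fit of the 8 shNT and KD libraries. None of the 9 genes passed, and neither did any of the 19146 genes tested (0% in either direction). Over all genes, 1348 had an unadjusted p under 0.05, and 72 were higher and 99 lower for shGas41-1 in DESeq2. *Yeats4*, at -0.94 for shGas41-1 minus shGas41-2 on the log2 scale (95% confidence interval -1.34 to -0.54), did not pass either (FDR = 0.198). A gene that did not pass here may thus still differ. Among the 9, *Lifr*, *Socs3* and *Pim3* had an unadjusted p under 0.05, with shGas41-1 minus shGas41-2 at -0.46 (95% confidence interval -0.84 to -0.09), -0.39 (-0.74 to -0.03) and -0.40 (-0.70 to -0.09) on the log2 scale, and 0 of the 9 passed in DESeq2. That 3 genes passed with shGas41-1 and none with shGas41-2 is thus no difference between the shRNAs that passed a test. Both KD comparisons used the same 3 shNT libraries.

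As a measure of how far separate sets of undifferentiated control libraries lie apart, EB day 0 was compared with shNT. None of the 9 genes passed, against 1.7% of 18095 genes tested that were higher and 0.647% that were lower in EB day 0. *Lifr* (log2 fold change 0.43, SE 0.13), *Jak1* (0.35, SE 0.11), *Jak2* (0.52, SE 0.22) and *Socs2* (-0.47, SE 0.14) had unadjusted p-values under 0.05, and *Lifr* and *Socs2* passed in DESeq2 (FDR = 0.0376 and 0.0243). Without shNT replicate 3 all 4 passed, and without shNT replicate 1 *Socs2* did. For the 3 genes called with shGas41-1, the control sets differed by 0.43 (*Lifr*), 0.05 (*Socs3*, SE 0.11) and -0.21 (*Pim3*, SE 0.10). The KD changes of the same genes were -0.62, -0.54 and -0.53. Set of libraries and group cannot be told apart in this comparison.

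The EB response and the KD response (mean of both shRNAs minus shNT) were then compared in a fit of all 12 libraries, in which they share no library. The EB response was lower for 5 of the 9 genes and higher for 2, against 22.8% and 22.9% of 19684 genes tested. It was lower by 3.90 on the log2 scale for *Socs3* (SE 0.21, FDR = 1.33e-07), by 1.99 for *Stat3* (SE 0.30, FDR = 2.13e-04), by 1.48 for *Pim3* (SE 0.18), by 1.30 for *Pim1* (SE 0.21) and by 1.02 for *Lifr* (SE 0.22). It was higher by 2.77 for *Socs2* (SE 0.35, FDR = 5.59e-05) and by 1.56 for *Jak2* (SE 0.28, FDR = 6.58e-04). *Socs2* had a rise in EBs that passed, beside values below 0 with both shRNAs that did not pass. For *Il6st* (0.17, 95% confidence interval -0.23 to 0.56) and *Jak1* (0.27, -0.21 to 0.74) the difference did not pass. The 7 calls remained without any single library.

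The other genes of the pathway were followed as a list of 43: cytokines, receptors, kinases, Stat factors, inhibitors, *Pim2* and textbook Stat3 targets of mESCs. In EBs 16 fell and 9 rose of the 40 tested, beside 28.4% and 30.5% of all genes tested. Of 9 Stat3 targets tested, 7 fell and 0 rose. *Klf4*, a pluripotency factor, from 271 and 276 to 5.10 and 5.21 CPM (log2 fold change -5.64, SE 0.09), *Tfcp2l1*, another, with -4.39, and *Bcl3*, a co-regulator of NF-κB, with -4.10 were among them. The targets *Junb* and *Myc* had 0.07 and 0.16 and did not pass. Both other Jak kinases fell (*Jak3* with -2.83 and *Tyk2* with -1.40).

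Of 6 other Stat factors, 3 fell and 2 rose in EBs, and of 13 inhibitors 4 fell and 4 rose, among them *Socs5* (0.73) and *Socs6* (0.87). For the inhibitors these shares are near the 28.4% and 30.5% of all genes. *Lif* itself was at 5.38 and 6.20 CPM in EB day 0 and 5.50 and 4.30 CPM in EB day 6 (log2 fold change -0.15, FDR = 0.519). *Pim2* was at 14.6 and 12.1 CPM in EB day 0 and at 827 and 575 CPM in EB day 6, a rise of 55.5-fold (log2 fold change 5.80, SE 0.21, FDR = 8.38e-06), while *Pim1* and *Pim3* fell. *Lif*, *Tyk2*, *Socs5*, *Socs6*, *Junb* and *Myc* were picked from the list after their values were seen.

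**Figure D5:**
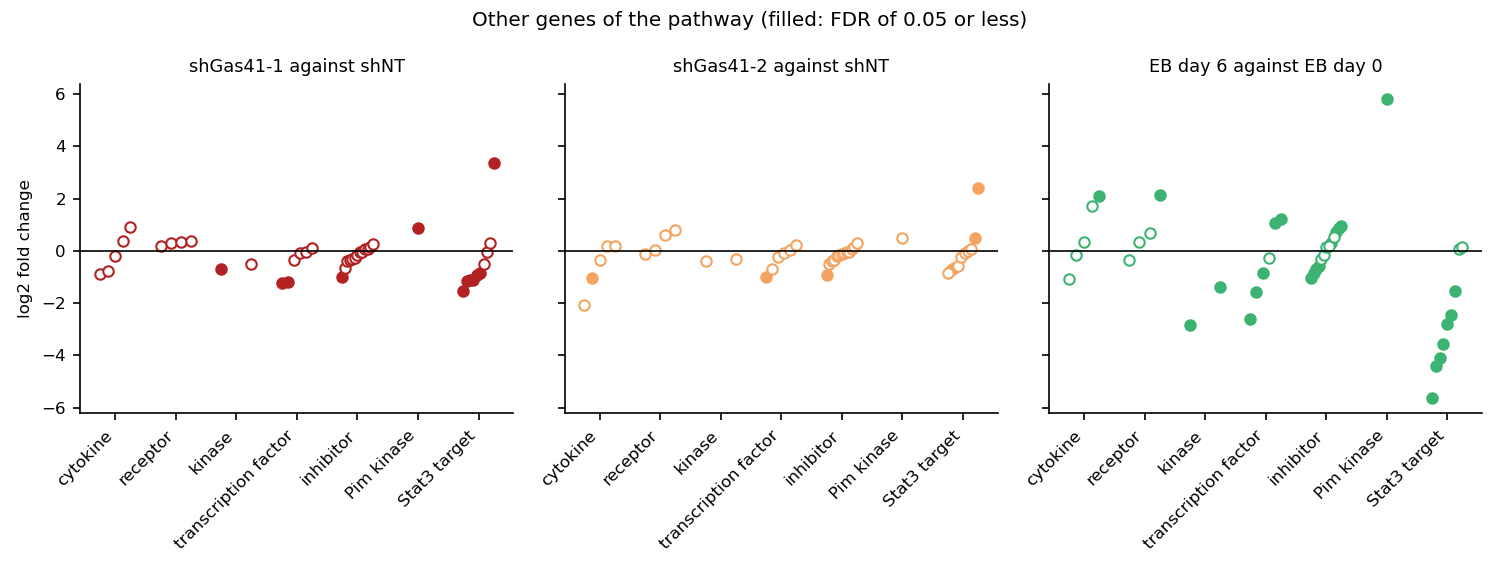
Log2 fold changes of the other pathway genes tested (vertical axis) by class (horizontal axis) in the KD and EB comparisons, each point a gene, filled where the FDR was 0.05 or less. In EBs 7 of 9 Stat3 targets fell and *Pim2* rose by 5.80. Of 10 targets, 6 fell and 1 rose with shGas41-1, and 2 fell and 2 rose with shGas41-2.

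With shGas41-1, 10 genes of the list fell and 2 rose of 41 tested (beside 7.73% and 10.8% of all genes), and of 10 Stat3 targets 6 fell and 1 rose. The falls numbered 6 without shGas41-1 replicate 1 and 6 without shNT replicate 2. *Tfcp2l1* (-1.55, SE 0.29, FDR = 0.0092), *Bcl3* (-1.13, SE 0.23) and *Klf4* (-1.13, SE 0.18) fell, as did *Stat6* (-1.24, SE 0.17) and *Stat5b* (-1.20, SE 0.26), 2 Stat factors used by other cytokines. *Pramel7*, a Stat3 target, rose from 0.355, 0.173 and 0.069 CPM in shNT to 1.66, 1.56 and 2.46 CPM. Its log2 fold change was 3.365 (SE 0.487, FDR = 0.00359), from an shNT level of few counts. With shGas41-2, 5 fell and 2 rose of 41 tested (beside 3.97% and 5.94% of all genes), and of the 10 Stat3 targets 2 fell and 2 rose. These counts rested on single libraries: 0 fell and 0 rose without shGas41-2 replicate 1, 1 and 0 without shGas41-2 replicate 2, 2 and 0 without shNT replicate 2, 11 and 3 without shNT replicate 1, and 6 and 4 without shNT replicate 3. *Ctf1*, a cytokine of the family (-1.04), *Stat6* (-0.99), *Ptpn6*, a phosphatase (-0.94), and *Klf4* (-0.66, FDR = 0.0412) were among those that fell, and *Pramel7* rose to 1.02 and 0.936 CPM (2.41, FDR = 0.0271), as did *Myc* (0.51, FDR = 0.0215). Between the control sets, *Lif* was the only gene of the list that passed, 2.05-fold higher in EB day 0 than in shNT (log2 fold change 1.04, FDR = 0.0301). No gene of the list passed there without EB day 0 replicate 2, EB day 0 replicate 3 or shNT replicate 2, nor in the fit over 12 libraries, while 2 rose without shNT replicate 1, and 6 rose and 1 fell without shNT replicate 3. The EB response was higher than the KD response for 11 genes of the list and lower for 15 of 42 tested (beside 22.9% and 22.8% of all genes), led by *Pim2* (5.15), *Klf4* (-4.71), *Cntf* (3.23, at most 0.422 CPM in any library) and *Bcl3* (-3.21). *Pramel7* and *Osm* also passed but were at 0 counts in EB day 6, so no fold is given. The median log2 fold change of the list was -0.19 with shGas41-1, -0.10 with shGas41-2 and -0.22 in EBs.

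Over the 12 libraries, the genes most like *Stat3* in log2(CPM + 1), among 13804 genes tested in all 3 tables, were *Myof* (Pearson r = 0.995), *Vash1* (0.991), *Fzd5* (0.990), *Mybl2* (0.990) and *Asb16* (0.989). Those most like *Socs3* were *Inhbb* and *Mcam* (both 0.996), *Cltb* (0.995), *AU018091* (0.995) and *Laptm5* (0.995). Among the 9 genes, *Stat3* was most like *Pim3* (0.974), *Socs3* (0.967) and *Pim1* (0.928), and *Jak2* (-0.816) and *Socs2* (-0.647) ran against it. The EB day 6 libraries set much of these values. Over the 10 libraries with LIF, *Stat3* and *Socs3* still ran together (0.951), as did *Stat3* and *Lifr* (0.885) and *Stat3* and *Pim3* (0.849). *Stat3* and *Il6st* had 0.876 against 0.326 over all 12. *Pim1* dropped to 0.50 with *Stat3*, and *Socs2* turned to 0.743 and *Jak2* to 0.397. Replicate 3 of shGas41-1, low for all 9 genes, is among those 10.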

How the data were processed

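The authors prepared RNA-seq libraries with a TruSeq kit, aligned reads to mm9 and known transcripts in TopHat2 2.0.10, counted them per gene in HTSeq and deposited whole-number counts without normalization. Whether strand was used is not given in the sources used here. The deposited tables also hold the authors' fold changes, p-values and FDR, which were not used. Columns called ESC in the EB table were read as EB day 0. The shNT counts were identical in both KD tables. The 15 ChIP-seq samples were not analysed here.

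Tables were joined by Ensembl identifier, with 0 for genes a table does not list. After filterByExpr (at least 10 counts, total at least 15) and TMM scaling, genes were tested with edgeR 4.0.16 in R 4.3.3 (quasi-likelihood F test, Benjamini-Hochberg over all genes tested), in fits of the compared groups. The test was also run on simulated counts, drawn independently for each library from the spread that edgeR estimated. Such counts cannot show the effect of an outlying library or of related replicates. Alternatives were RLE scaling, library size alone, no filter, DESeq2 1.42.0, the study's rule (2-fold, FDR 0.05), a fit over all 12 libraries, a replicate block and leaving out each library. The floor of 3 counts was 0.0368 to 0.0507 CPM and covers counting error only. Exon lengths came from GENCODE vM1 (mm9).

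The 9 genes and the lists were chosen with earlier results of these data known. Named were all 9 genes, *Yeats4*, up to 6 called pathway genes with the largest change in each comparison, and the 5 genes most like *Stat3* and *Socs3* (no Gm or Rik names). Genes picked otherwise are marked. A gene that this rule names is not reported here.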

Additional observations from a re-analysis of the deposited data

How the results depend on the processing

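The EB changes and the differences between the EB and KD responses depended little on the processing: the 8 and 7 genes called stayed called under RLE scaling, library size alone, no filter, DESeq2, the block and each library left out, and the 2-fold rule took only *Jak1* from the EB calls. The KD calls were less firm. With shGas41-1, the 3 calls became 0 under the 2-fold rule and between 0 and 4 when single libraries were left out. Over all alternatives, a gene outside those 3 passed 5 times, including *Jak1* and *Socs2* with a library left out. With shGas41-2, 0 calls became 1 in DESeq2 and between 0 and 1 with libraries left out. Between EB day 0 and shNT, 0 calls became 2 without the filter, 2 in DESeq2 and between 0 and 4 with libraries left out. Between the shRNAs 0 of the 9 genes were called under every alternative, while over all genes 72 were higher and 99 lower for shGas41-1 in DESeq2, 3 and 2 without the filter and 7 and 8 in the fit over 12 libraries. Over all genes and alternatives, the calls ranged from 962 to 2772 rises and 438 to 2686 falls with shGas41-1, from 283 to 3424 and 23 to 3622 with shGas41-2, from 2778 to 5694 and 2288 to 5871 in EBs, and from 1 to 1808 and 0 to 1627 between EB day 0 and shNT. The cause of these changes was not tested.

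The replicate numbers were not treated as pairs in the main fits, and the data point both ways. Same-numbered deviations of shGas41-1 and shNT correlated at -0.158, 0.195 and -0.65. No shGas41-1 library correlated best with the shNT library of its own number. Same-numbered libraries of shGas41-2 and shNT correlated at 0.523 and 0.462, a comparison that shares only 2 numbers. The 2 shGas41-2 libraries mirror each other around their mean (0.523 and -0.523 with shNT 1), so these values are not separate pieces of evidence. In a fit with a replicate block, the calls were 0 with shGas41-1, 2 with shGas41-2 (*Jak1* and *Socs2*) and 1 between EB day 0 and shNT (*Socs2*), the pathway list with shGas41-2 went from 2 rises and 5 falls to 7 and 14, and all genes from 1094 and 730 to 3424 and 3622, and log2 fold changes near 0 turned sign for *Stat3* with shGas41-2 (0.007) and for *Il6st* (-0.012) and *Socs3* (-0.025) between EB day 0 and shNT. The block changed no other count of calls among the 9 genes.

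Leaving out single libraries turned the sign only of log2 fold changes that were not called: *Pim1* with shGas41-1 (-0.158 to 0.085), *Jak2* (-0.002 to 0.365) and *Stat3* (-0.225 to 0.011) with shGas41-2, *Il6st* in EBs (-0.139 to 0.025), *Il6st* (-0.001 to 0.157), *Jak1* (-0.054 to 0.254), *Socs2* (-0.507 to 0.147) and *Pim1* (-0.01 to 0.24) between the shRNAs, and *Il6st* (-0.018 to 0.096) and *Socs3* (-0.041 to 0.108) between EB day 0 and shNT. Where a group was left with 1 library, that library was assumed to vary like the others. Scaling CPM by TMM moved the group mean by more than 1 SD for 10 of 45 values, in groups of 2 libraries.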
